A study of Homo sapiens with 18 samples.

Results

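Expression of 10 genes of the interleukin 1 system was followed through 18 RNA-seq libraries of THP-1 cells, a human monocytic leukaemia cell line: the ligand genes IL1A, IL1B and IL18, the antagonist and decoy genes IL1RN and IL18BP, the receptor genes IL1R1, IL1R2 and IL1RAP, and the processing genes NLRP3 and CASP1. They are the 10 genes of this system listed for the study, a list made with earlier results of these data known. They were matched to the deposited Ensembl identifiers through a symbol table. The files list 58051 genes, of which 15037 had enough counts to be tested, and all 10 were among these. All cells had been transduced with an MSCV retroviral vector that carries GFP, sorted for GFP and kept for 48 h in PMA (5 ng/ml), which turns the monocytic line into adherent macrophage-like cells. The vector was empty (IRES), or encoded the MYC-tagged intracellular domain of NOTCH1, the active form of the receptor (NIC1), or a dominant-negative Mastermind-like protein, which blocks Notch-dependent transcription (DNMAML). Each of the 3 cell populations was left without further stimulus or given IL-4 at 20 ng/ml for 3 h, which makes 6 groups of 3 libraries. The 3 libraries of a group carry the experiment numbers 1 to 3, and the labels do not say what separates experiments, so a p-value reflects only how these libraries vary, which may be technical. The constructs were expressed from a vector in 1 leukaemia line, so levels are those of overexpression in that line.

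Interleukin 1 alpha and beta bind the signalling receptor IL1R1, which then recruits the accessory protein IL1RAP. IL1RN encodes a secreted antagonist that occupies IL1R1 without recruiting IL1RAP, and IL1R2 is a decoy receptor that binds ligand and does not signal; macrophages make both, and IL-4 is a classical inducer of the antagonist in them. Interleukin 1 beta and interleukin 18 are made as precursors that caspase 1 (CASP1) cleaves after it is activated on an inflammasome such as that of NLRP3, and IL18BP is a secreted protein that binds and neutralises interleukin 18. 

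Library totals were 12410668 to 15099788 counts in genes. In 16 libraries 21067 to 21557 genes had at least 1 count, against 23179 in replicate 3 of IRES cells without IL-4 and 25322 in replicate 3 of DNMAML cells with IL-4. The latter also had the largest share of reads in no gene, 30.9%. Calls among the 10 genes that rest on these 2 libraries are also given without them, for the fit without an experiment block. Calls of other genes, and calls with the block, are not. NOTCH1 was measured at 245 to 350.1 CPM (counts scaled to a common library total) in NIC1 cells without IL-4, above the IRES range of 157 to 234, and MAML1 at 123 to 139 CPM in DNMAML cells, above 80.6 to 98.996 in IRES cells. The Notch target genes HES1, HEY1 and NRARP separated less. Without IL-4 all of them overlapped between DNMAML and IRES cells. HES1 and NRARP also overlapped between NIC1 and IRES cells, and HEY1 did not. Of 10 monocyte and macrophage markers 9 reached 1 CPM in some library and their sum was 1212 to 1497 CPM, with ITGAM, ITGAX, CSF1R and SPI1 the highest, but CD14 stood at no more than 9.26 CPM, CD68 at no more than 1.60 CPM and the mannose receptor gene MRC1 was at or near 0. The summed T cell markers were at 114 to 159 CPM in NIC1 cells against 76.2 to 106 in the others. TRAC made up most of each sum, with group means of 96.3 to 108 CPM in NIC1 cells and 80.6 to 89.2 CPM in the others. Of the 8 T cell markers 4 reached 1 CPM in some library. CD3D had a mean of 32.1 CPM in NIC1 cells without and 23.6 CPM with IL-4 against at most 5.26 CPM in the other groups. CD3E, CD247, CD2 and CD5 stayed at or near 0, at no more than 0.30 CPM. The 6 neutrophil markers summed to 18.95 to 27.3 CPM in NIC1 cells and 20.5 to 55.8 in the others, ranges that overlap. Without IL-4 this sum was lower in NIC1 than in DNMAML cells without overlap, at 18.95 to 26.5 against 28.3 to 55.8 CPM. With IL-4 the neutrophil sums of these constructs overlapped. Only 2 of the 6 reached 1 CPM in some library, CSF3R at up to 48.8 and CXCR2 at up to 7.49 CPM. FCGR3B, MMP8, CEACAM8 and LTF stayed at no more than 0.513 CPM. The 7 fibroblast and epithelium markers, mostly COL1A1, summed to 92.2 to 194 CPM, with ranges that overlapped between constructs. The monocyte and macrophage sum was also lower in NIC1 than in DNMAML cells without IL-4, at 1212 to 1293 against 1379 to 1473 CPM. With IL-4 it overlapped between these constructs. The part of the marker differences in the NIC1 results below was not tested.

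The levels of the 10 genes spanned a wide range. Per kilobase of exon, which allows genes of different length to be compared, IL1RN was the highest, with a median over the 18 libraries of 119.9 CPM per kb, followed by IL1B at 31.1. NLRP3 (6.64), CASP1 (4.26), IL18 (3.49), IL1RAP (3.41), IL1A (2.36) and IL18BP (1.36 CPM per kb) formed a middle range in which the order of neighbours changed between libraries. IL1R1 had a median of 0.792 CPM per kb and the widest range of all, 23.2-fold between its highest and lowest library. The decoy receptor IL1R2 was the lowest at 0.174 CPM per kb and rested on 2 to 14 counts in a library, too few to resolve moderate differences. All other values below are CPM scaled by the TMM method, which are comparable between libraries for a gene but not between genes.

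The first question was how IL-4 changed these genes in control cells. In IRES cells 2 of the 10 rose, IL1R1 and IL1RN, and none fell in the test across all genes (edgeR's quasi-likelihood test, Benjamini-Hochberg adjusted p under 0.05). Of all 15037 genes 2.93% were called in this comparison, 304 higher and 137 lower. The same 2 genes, and no other of the 10, rose in NIC1 cells, where 3.05% of all genes were called, and in DNMAML cells, where 3.28% were called. When the experiment number was added to the model as a block, 9.04%, 8.8% and 9.95% of genes were called in IRES, NIC1 and DNMAML cells. The calls among the 10 genes then numbered 4, 3 and 3, and the added ones are given with each gene below. Without the block the median log2 change of the 10 was -0.11, -0.058 and -0.017, beside -0.005, -0.011 and -0.009 over all genes tested.

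IL1RN (ENSG00000136689, chr2:113107214-113134016, plus strand) encodes the receptor antagonist. In IRES cells without IL-4 its level in experiments 1, 2 and 3 was 123, 204 and 149.5 CPM, and with IL-4 it was 520.1, 510.2 and 521 CPM. In NIC1 cells the values were 231, 274 and 190.4 CPM without and 624, 732 and 595 CPM with IL-4. In DNMAML cells they were 109.9, 158 and 158 CPM without and 518, 506 and 526 CPM with IL-4. Every library with IL-4 was above every library without it, with no overlap in any construct. With IL-4 the 3 IRES and the 3 DNMAML libraries lay within a narrow band, at 517 ± 6.09 and 517 ± 9.77 CPM (SD, n = 3), while the unstimulated groups were more spread, at 159 ± 41.5 and 142 ± 27.9 CPM. The log2 change was 1.70 ± 0.177 (SE, edgeR adjusted p = 1.56e-05) in IRES cells, a 3.26-fold rise. It was 1.49 ± 0.176 (adjusted p = 6.38e-05) with NIC1 and 1.86 ± 0.178 (adjusted p = 7.33e-06) in DNMAML cells.

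IL1R1 (ENSG00000115594, chr2:102064544-102179874, plus strand) encodes the signalling receptor. Its level in experiments 1, 2 and 3 was 1.38, 3.39 and 1.95 CPM in IRES cells without IL-4 and 9.65, 14.3 and 9.99 CPM with it. In NIC1 cells it was 4.72, 5.89 and 3.52 CPM without and 20.1, 26.1 and 17.2 CPM with IL-4. DNMAML cells had 1.399, 1.76 and 1.13 CPM without and 6.74, 9.93 and 5.33 CPM with IL-4. The groups without and with IL-4 did not overlap in any construct, although the lowest stimulated DNMAML library, at 5.33 CPM, was below the highest unstimulated NIC1 library, at 5.89 CPM. The rise was 5.02-fold in IRES cells (log2 change 2.33 ± 0.319, edgeR adjusted p = 2.78e-04), 4.48-fold in NIC1 cells (2.16 ± 0.298, adjusted p = 2.95e-04) and 5.09-fold in DNMAML cells (2.35 ± 0.338, adjusted p = 4.37e-04). These values rest on 15 to 74 counts in an unstimulated library and 83 to 356 in a stimulated one. Both IL1RN and IL1R1 kept their IL-4 calls when any 1 of the libraries compared was left out, with adjusted p of at most 0.00525. Without the 2 libraries with the most genes, adjusted p was at most 0.00402 for the 2 genes.

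**Figure D1:**
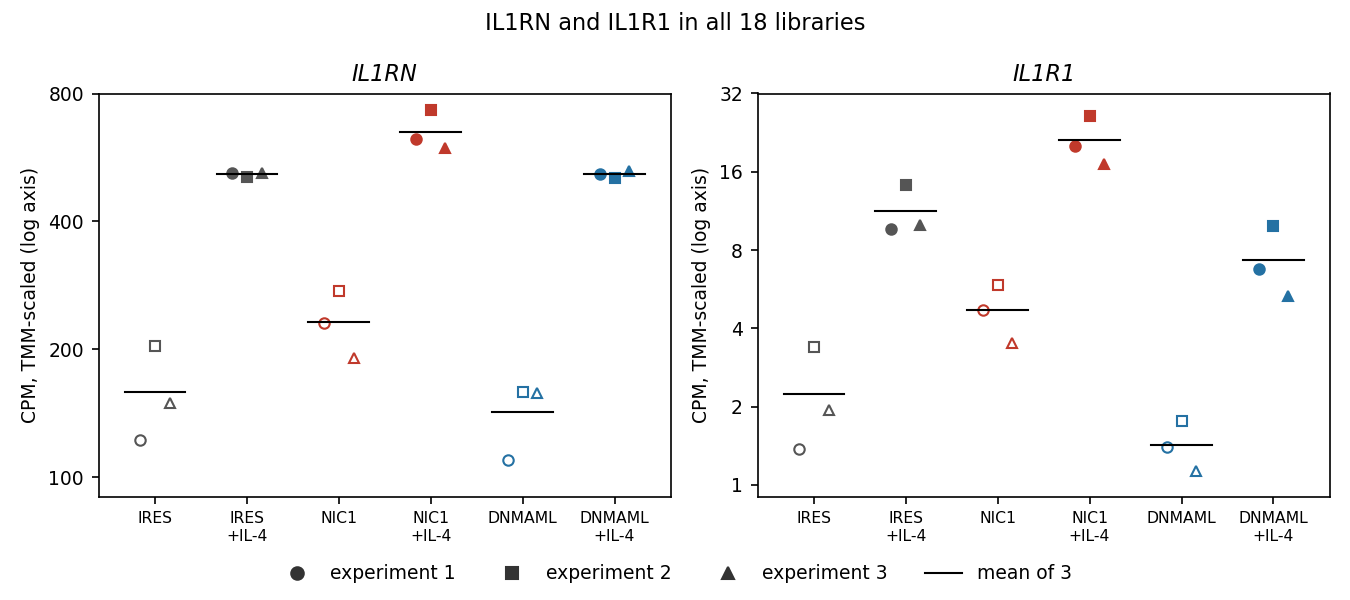
IL1RN (left) and IL1R1 (right) in each of the 18 libraries, as TMM-scaled CPM on a log axis; open symbols are libraries without IL-4, filled symbols those with IL-4, the symbol's shape gives the experiment and the bar the mean of 3. All stimulated libraries lie above all unstimulated libraries of the same construct, and NIC1 libraries are the highest in both conditions for IL1R1.

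The 250 bases upstream of annotated starts were examined for IL1RN and IL1R1, because these 2 genes moved together, and for IL1R2, the neighbour of IL1R1 that was not called. The stretches come from RefSeq promoter windows on GRCh38.p14, plus strand, which is the sense strand of all 3 genes. Each precedes a start that lies inside the annotated gene, and the capitals fall in no annotated exon. RefSeq windows were found for 8 of the 10 genes. Capitals mark the letters TTC, 4 of any base, GAA, the spacing that STAT6, the factor activated by the IL-4 receptor, is known to prefer, or TTC, 3 of any base, GAA, the general STAT spacing.
IL1RN, chr2:113127239-113127488: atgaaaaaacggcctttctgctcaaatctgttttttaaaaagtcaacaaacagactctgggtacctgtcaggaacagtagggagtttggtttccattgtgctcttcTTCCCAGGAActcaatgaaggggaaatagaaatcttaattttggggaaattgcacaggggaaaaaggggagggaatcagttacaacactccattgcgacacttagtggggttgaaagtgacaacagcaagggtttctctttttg
IL1R1, chr2:102142056-102142305: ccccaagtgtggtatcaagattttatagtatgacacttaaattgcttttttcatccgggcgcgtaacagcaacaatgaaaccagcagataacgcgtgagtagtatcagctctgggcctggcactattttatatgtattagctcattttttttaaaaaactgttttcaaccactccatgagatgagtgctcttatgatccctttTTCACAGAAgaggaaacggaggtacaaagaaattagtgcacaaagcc
IL1R2, chr2:101998711-101998960: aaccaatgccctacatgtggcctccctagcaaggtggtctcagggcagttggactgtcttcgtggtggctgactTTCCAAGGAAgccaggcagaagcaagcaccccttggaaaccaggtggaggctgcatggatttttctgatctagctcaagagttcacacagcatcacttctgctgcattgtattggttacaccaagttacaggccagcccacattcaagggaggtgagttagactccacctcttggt
The IL1RN stretch holds the 4-base spacing at -144 to -135 from the start, and the IL1R1 stretch the 3-base spacing at -47 to -39. The IL1R2 stretch, of a gene that IL-4 did not change by the test, also holds the 4-base spacing, at -176 to -167. RefSeq gives 3 windows for IL1RN, 4 for IL1R1 and 2 for IL1R2; the 1 window of each gene that holds either spacing is printed, and the others hold neither. The 4-base spacing (TTCNNNNGAA) occurs in 6.44% and the 3-base spacing (TTCNNNGAA) in 7.66% of all 35114 RefSeq promoter windows of 300 bases, searched on both strands. These are shares per single window, and a gene with several windows has more chances of a match. The core letters TGGGAA, known for the Notch partner RBPJ, occur in 24.03% of windows. They were found in the same IL1RN stretch, where on the minus strand they overlap the STAT6 letters, in another IL1R1 window and in exon sequence of IL18BP. IL1B has the 3-base spacing at -180 to -172, IL18BP has it in 2 places in an exon, and neither STAT spacing was found in the windows of IL1A, IL1RAP or NLRP3. The kappaB consensus, in 5.91% of all windows, was found in none of the 18 windows of these genes. The C/EBP letters TTGCNNAA, in 10.5% of all windows, were found in 1 window each of IL1R1 and IL1B. These matches are a description of the letters in the windows only.

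Set against its agonists, the antagonist gained under IL-4 in each experiment. The ratio of IL1RN to the sum of IL1A and IL1B, in CPM per kb, was 1.73, 0.875 and 1.89 in IRES cells without IL-4 in experiments 1, 2 and 3, and 7.12, 2.68 and 7.56 with it. In NIC1 cells it was 1.38, 0.694 and 1.63 without and 4.77, 2.08 and 6.04 with IL-4. In DNMAML cells it was 1.81, 0.625 and 1.61 without and 6.09, 2.22 and 5.96 with IL-4. The ratio was higher with IL-4 in all 9 pairs of libraries of the same construct and experiment, by 3.00-fold to 4.12-fold. Without regard to experiment the groups came close to each other, since experiment 2 had the lowest ratio in all 6 groups. The ratio was chosen after the levels of its members had been seen and is given without a test, and it compares RNA levels, not secreted protein.

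**Figure D2:**
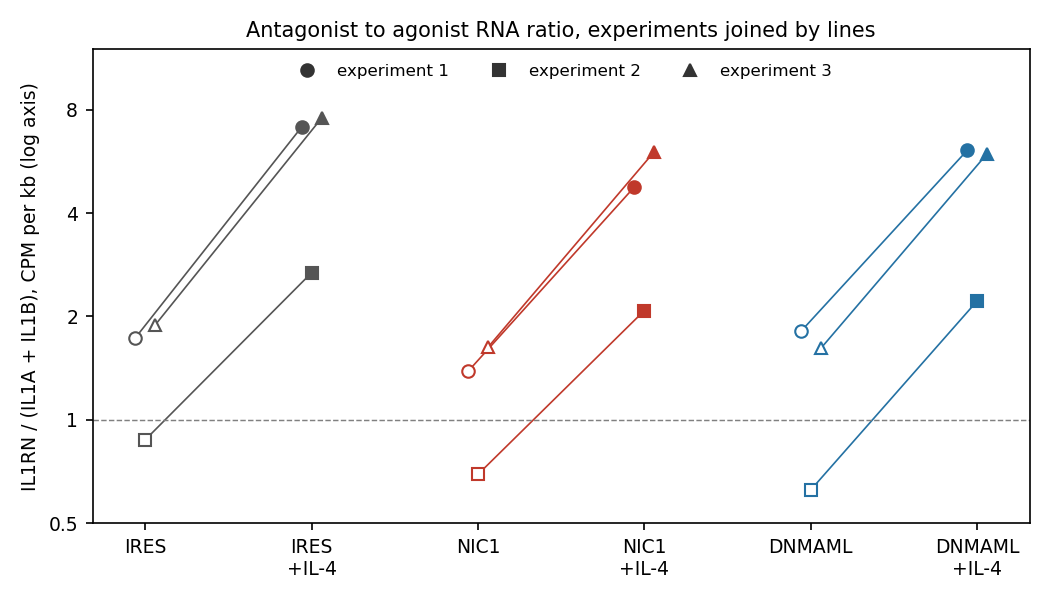
Ratio of IL1RN to IL1A plus IL1B, in CPM per kb of exon, on a log axis; open symbols are without and filled symbols with IL-4, and lines join libraries of the same experiment. All 9 lines rise, by 3.00-fold to 4.12-fold, and experiment 2 (squares) is the lowest in every group.

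The agonist ligands did not share this rise. IL1B (ENSG00000125538, chr2:112829751-112836903, minus strand), the main secreted agonist of macrophages, stood at 60.5, 213 and 69.2 CPM in IRES cells without IL-4 and at 63.8, 176 and 62.7 CPM with it. NIC1 cells had 151, 365 and 104 CPM without and 119, 326 and 88.8 CPM with IL-4, and DNMAML cells 50.2, 231 and 82.8 and 73.96, 209 and 76.6 CPM. The groups without and with IL-4 overlapped in each construct, and libraries separated by experiment more than by stimulus. Experiment 2 was above the mean of experiments 1 and 3 in all 6 groups, by 2.77-fold to 3.48-fold. The log2 change with IL-4 was -0.18 ± 0.754 in IRES cells (95% interval -1.80 to 1.44, adjusted p = 1), -0.22 ± 0.747 with NIC1 and -0.022 ± 0.752 with DNMAML. With the experiment block the intervals narrowed, to -0.54 to 0.29 in IRES cells, and IL1B was still not called (blocked adjusted p of 0.833, 0.559 and 0.928).

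IL1A (ENSG00000115008, chr2:112773915-112784590, minus strand) encodes the other agonist, which is active without cleavage by caspase 1. It was low, at 1.97 to 7.72 CPM over all libraries. In IRES cells it was at 4.65, 6.06 and 4.13 CPM without and 3.88, 3.08 and 1.97 CPM with IL-4, and all 3 stimulated libraries were below the 3 unstimulated ones. The log2 change of -0.73 ± 0.274 in IRES cells was not called without the block (edgeR adjusted p = 0.274) and was called with it (-0.71, blocked adjusted p = 0.0408). In NIC1 cells it was -0.48 ± 0.266 and in DNMAML cells -0.29 ± 0.261, called in neither of these fits. A block for each construct and experiment also gave a call in NIC1 cells (adjusted p = 0.037). Within experiments the level with IL-4 was lower in all 9 pairs.

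IL18 (ENSG00000150782, chr11:112143251-112164117, minus strand), a ligand that induces interferon gamma in lymphocytes, ranged from 3.52 to 14.99 CPM. Its levels were 11.5, 5.99 and 11.6 CPM in IRES cells without IL-4 and 9.92, 5.26 and 8.75 CPM with it, 9.74, 4.46 and 9.599 and 7.22, 3.52 and 7.67 CPM in NIC1 cells, and 14.99, 7.47 and 12.3 and 11.6, 6.36 and 11.9 CPM in DNMAML cells. Experiment 2 was the lowest of the 3 in all 6 groups, 1.77-fold to 2.17-fold below the mean of the other two, and groups without and with IL-4 overlapped. The IL-4 change was called in no construct in either fit (log2 -0.28 ± 0.392, -0.37 ± 0.402 and -0.22 ± 0.385), although the level was lower with IL-4 in all 9 pairs of the same construct and experiment. A block for each construct and experiment gave a call in NIC1 cells (adjusted p = 0.0448). IL18BP (ENSG00000137496, chr11:71998541-72005715, plus strand) stood at 3.88 to 7.59 CPM and showed log2 changes of 0.023 ± 0.187, -0.035 ± 0.188 and -0.012 ± 0.183. The 3 intervals of 95% all lay within -0.43 to 0.42. IL18BP shares 675 exon bases with NUMA1 on the other strand, which had 69145 counts in all against 1438 for IL18BP, and whether the counting used strand is not given in the sources used here, so the level of IL18BP is uncertain.

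Of the 2 other receptor chains, IL1RAP (ENSG00000196083, chr3:190514051-190659750, plus strand), which both IL1R1 and the IL-33 receptor recruit, was at 32.3, 30.4 and 31.7 CPM in IRES cells without IL-4 and 41.4, 39.5 and 33.6 CPM with it. In NIC1 cells it was at 39.3, 44.4 and 30.7 and 49.03, 55.6 and 45.4 CPM, and in DNMAML cells at 36.4, 34.7 and 39.4 and 44.3, 37.9 and 40.9 CPM. It was higher with IL-4 in all 9 pairs, by at most 1.48-fold, and the groups overlapped in DNMAML cells only. The log2 change of 0.39 ± 0.1199 in NIC1 cells was not called by edgeR without the block (adjusted p = 0.119) and passed with it (blocked adjusted p = 0.0156), and it also passed without the block when NIC1 replicate 2 without IL-4 was left out (adjusted p = 0.0394) or no low-count filter was used (0.0485), and those of 0.28 ± 0.121 in IRES and 0.16 ± 0.120003 in DNMAML cells were called in neither of the 2 fits. A block for each construct and experiment also gave a call in IRES cells (adjusted p = 0.00669). IL1R2 (ENSG00000115590, chr2:101991844-102028544, plus strand) had 2, 6 and 2 counts in IRES cells without IL-4 and 3, 5 and 2 with it. In NIC1 cells the counts were 14, 7 and 3 and 12, 10 and 8, and in DNMAML cells 14, 7 and 9 and 7, 9 and 11. An IL-4 change of this decoy was not detectable at this depth, and the 95% interval of its log2 change in IRES cells, -1.41 to 1.30, includes a change larger than 2-fold in either direction.

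NLRP3 (ENSG00000162711, chr1:247416156-247449108, plus strand), the inflammasome sensor, was slightly lower with IL-4. Its levels were 40.9, 29.001 and 30.2 CPM in IRES cells without IL-4 and 27.8, 27.7 and 23.996 CPM with it, 42.9, 39.2 and 40.7 and 37.1, 36.6 and 35.6 CPM in NIC1 cells, and 32.04, 31.1 and 33.7 and 23.3, 26.8 and 25.7 CPM in DNMAML cells. Stimulated libraries were below unstimulated ones of the same construct without overlap in all 3 constructs. The log2 changes of -0.33 ± 0.109 in IRES and -0.35 ± 0.109 in DNMAML cells were called with the experiment block (blocked adjusted p of 0.0359 and 0.0223) and not without it (edgeR adjusted p of 0.161 and 0.119). In NIC1 cells the change was -0.17 ± 0.108, called in neither fit. CASP1 (ENSG00000137752, chr11:105025443-105035250, minus strand), the protease, ranged from 7.14 to 23.7 CPM and overlapped between groups without and with IL-4. Its IL-4 changes were -0.17 ± 0.452, -0.081 ± 0.456 and 0.035 ± 0.4498 on the log2 scale, and experiment 2 was 1.69-fold to 2.46-fold below the mean of experiments 1 and 3 in all 6 groups.

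**Figure D3:**
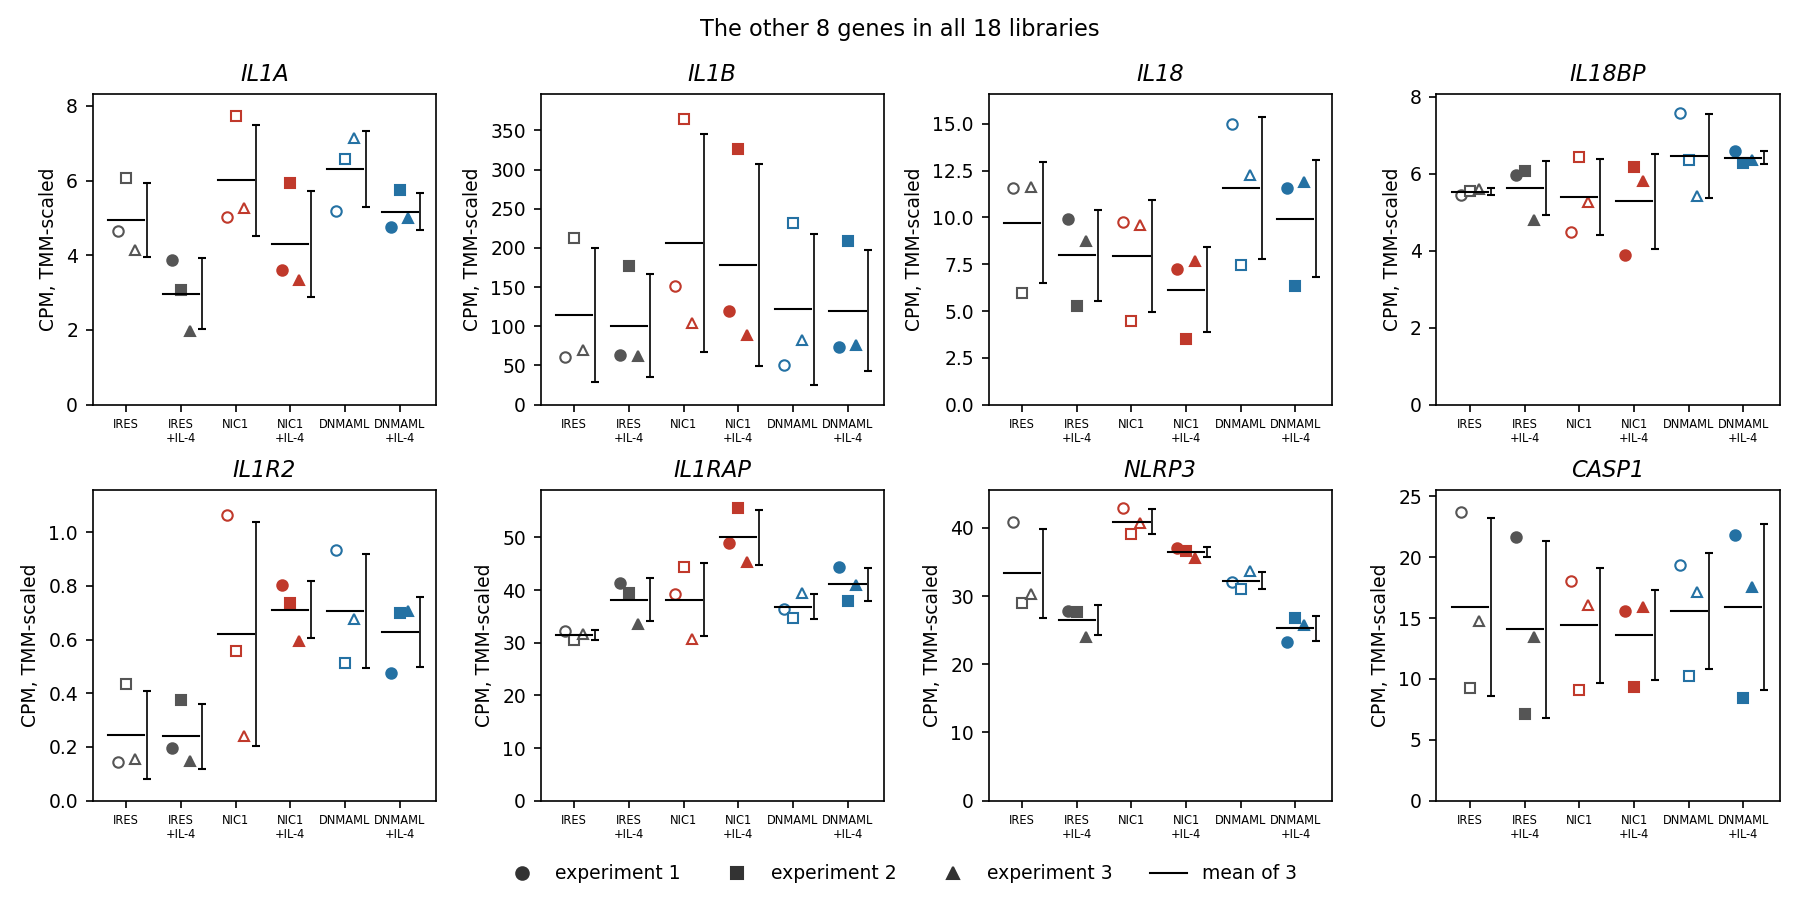
The other 8 genes in each of the 18 libraries, as TMM-scaled CPM on linear axes that start at 0; open symbols are without and filled symbols with IL-4, shapes give the experiment, bars the mean and whiskers the SD of 3. Experiment 2 (squares) is the highest for IL1B and the lowest for IL18 and CASP1 in all 6 groups, and the mean of NLRP3 is highest in NIC1 cells in both conditions.

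The second question was whether the NIC1 or the DNMAML construct changed these genes. Against the empty vector, none of the 10 was called in NIC1 cells without IL-4 by edgeR, nor by DESeq2, with 5 of them at an unadjusted p under 0.05 in edgeR and 4 in DESeq2. Of all 15037 genes 0.233% were called, and 1071 had an unadjusted p under 0.05 in edgeR. With IL-4 none was called by edgeR, where 0.2% of all genes were called. An unadjusted p under 0.05 in edgeR was reached by 4 of the 10 and by 895 of all genes. By DESeq2 1 of the 10 was called, NLRP3 (adjusted p = 0.0314). With the experiment block 5.37% and 5.44% of all genes were called without and with IL-4, and 2 and 4 of the 10, all higher in NIC1. IL1R1 was called in both conditions (log2 1.08 and 0.91, blocked adjusted p of 8.72e-04 and 4.59e-05), as was IL1B (0.90 and 0.78, blocked 0.0157 and 0.0323). IL1RAP (0.39, blocked 0.0257) and NLRP3 (0.46, blocked 0.00559) were called with IL-4.

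Within experiments, the ratio of NIC1 to IRES cells for IL1B was 2.498, 1.71 and 1.497 without IL-4 and 1.87, 1.85 and 1.42 with it in experiments 1, 2 and 3. For IL1R1 it was 3.42, 1.74 and 1.81 without and 2.09, 1.83 and 1.72 with IL-4, and for IL1RN 1.88, 1.34 and 1.27 and 1.2004, 1.43 and 1.14. All 18 of these ratios were above 1, but IL1B and IL1R1 had already been called higher in the same libraries with the block. For IL18 each ratio was below 1, at 0.844, 0.745 and 0.826 without and 0.728, 0.670 and 0.876 with IL-4. Those of IL18BP and CASP1 lay on both sides of 1, and those of the remaining genes mostly above it. The T cell marker sums given above also differ between NIC1 and IRES cells. The neutrophil sums overlapped, at 18.95 to 26.5 against 20.5 to 49.1 CPM without IL-4 and 19.5 to 27.3 against 23.1 to 45.3 CPM with it. The part of such marker differences in these ratios was not tested. In DNMAML cells none of the 10 was called against IRES cells by edgeR without or with IL-4, with 1 and 3 at an unadjusted p under 0.05, and none by DESeq2 or with the block. Of all genes 0.0% and 0.0% were called, and 0.146% and 0.0931% with the block. Without the block 371 and 357 of all 15037 genes had an unadjusted p under 0.05 in edgeR. The log2 difference of DNMAML from IRES cells was -0.65 ± 0.367 without and -0.63 ± 0.287 with IL-4 for IL1R1, and -0.16 ± 0.174 and -0.00076 ± 0.172 for IL1RN. With IL-4 the 95% interval for IL1RN was -0.37 to 0.36.

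The 2 Notch constructs were then compared with each other. Their T cell, neutrophil and macrophage marker sums, given above, also differed without IL-4, and the part of this in the results was not tested. IL1R1 was higher in NIC1 than in DNMAML cells in both conditions, the only 1 of the 10 called without IL-4, where 1.65% of all genes were called. The difference was 3.28-fold without IL-4 (log2 1.71 ± 0.347, edgeR adjusted p = 0.0191) and 2.89-fold with it (log2 1.53 ± 0.286, adjusted p = 0.0116). The NIC1 and DNMAML libraries did not overlap in either condition. Within experiments 1, 2 and 3 the ratio was 3.37, 3.35 and 3.12 without and 2.99, 2.63 and 3.23 with IL-4. The call without IL-4 was kept in 2 of 6 leave-outs and lost without NIC1 replicate 1 (adjusted p = 0.0623) or 2 (0.0804) and without DNMAML replicate 1 (0.0956) or 3 (0.111). The call with IL-4 was kept in 3 of 6 and lost without NIC1 replicate 2 (0.0585) and without DNMAML replicate 1 (0.0743) or 3 (0.0836), with log2 differences of 1.35 or more in all 6. A fit of only the 2 groups compared gave adjusted p of 0.0572 without and 0.0625 with IL-4. Without the 2 libraries with the most genes the log2 difference was 1.35 with IL-4 (adjusted p = 0.109).

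With IL-4, 1.44% of all genes were called and NLRP3 was the other of the 10, at 0.53 ± 0.109 on the log2 scale (a 1.44-fold difference, edgeR adjusted p = 0.0227). Its NIC1 libraries, at 37.1, 36.6 and 35.6 CPM, all lay above its DNMAML libraries, at 23.3, 26.8 and 25.7 CPM. The NLRP3 call was kept in 1 of 6 leave-outs, the one without DNMAML replicate 2, and lost in the other 5, with adjusted p of up to 0.127, and leaving out both libraries with the most genes also ended it (0.0972), as did a fit of only the 2 groups compared (0.064). Without IL-4 the NLRP3 difference was 0.34 ± 0.108 and was called with the block alone (blocked adjusted p = 0.0189).

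Adding the experiment block raised the share of genes called between NIC1 and DNMAML cells to 13.8% without and 12.6% with IL-4, and the count among the 10 to 5 and 3. Without IL-4, IL1RN was higher in NIC1 cells by 0.71 on the log2 scale (blocked adjusted p = 0.00764; 0.0553 in edgeR without the block and 0.00632 in DESeq2). With IL-4 the IL1RN difference was 0.33 ± 0.172 (adjusted p = 0.488), called in no fit. IL1B was higher in NIC1 cells without IL-4 by 0.83 (blocked 0.0113, 0.744 without the block). IL18 was lower in NIC1 than in DNMAML cells, with a log2 difference of -0.56 without IL-4 (blocked 0.00179) and -0.70 with it (blocked 2.63e-04), and not called without the block (0.611 and 0.545). The ligand genes IL1B and IL18 thus differed in opposite directions between the same cells without IL-4. Within experiments the DNMAML level of IL18 was 1.54, 1.67 and 1.28-fold that of NIC1 without IL-4 and 1.603, 1.81 and 1.55-fold with it.

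**Figure D4:**
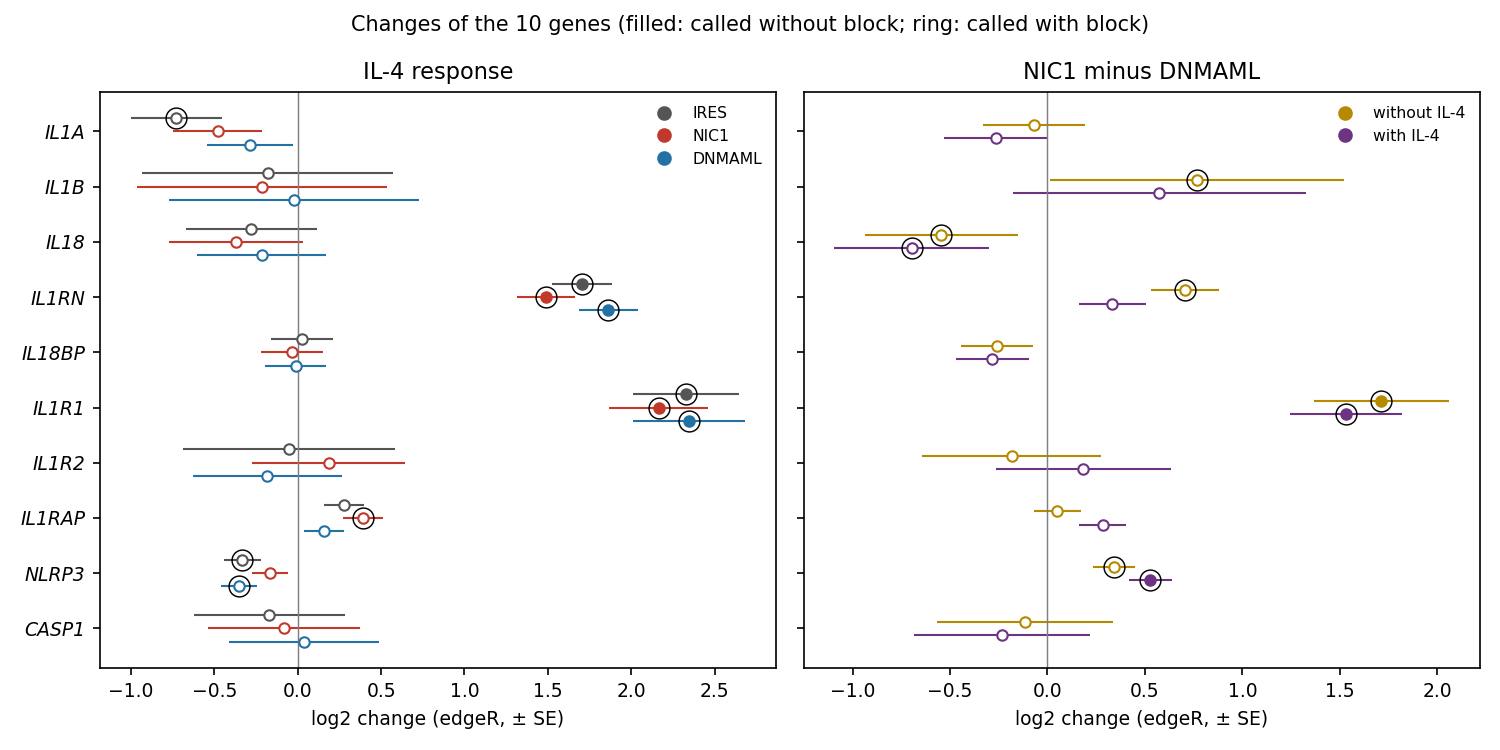
Log2 change of each of the 10 genes with its SE from edgeR without the block, for IL-4 in the 3 constructs (left) and for NIC1 minus DNMAML without and with IL-4 (right). Filled circles passed an adjusted p of 0.05 without the experiment block and rings with it; IL1RN and IL1R1 are the filled genes on the left, and IL1R1 and NLRP3 on the right.

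Whether the constructs changed the IL-4 response itself was tested as the difference of responses. None of the 10 was called by edgeR, by DESeq2 or with the block, and none had an unadjusted p under 0.05 in any of the 3, for NIC1 minus IRES, DNMAML minus IRES or NIC1 minus DNMAML. Of all genes 0.0% (121 genes at an unadjusted p under 0.05), 0.0% (98) and 0.0% (214) were called, and with the block 0.0%, 0.0% and 0.0%. For IL1R1 the response of NIC1 differed from that of IRES cells by -0.16 on the log2 scale, with a 95% interval of -1.07 to 0.74. For IL1RN the difference was -0.22 (-0.73 to 0.30) for NIC1 minus IRES and -0.37 (-0.89 to 0.15) for NIC1 minus DNMAML. These intervals are wide: for IL1R1 in NIC1 against IRES cells they run from a smaller to a larger response.

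IL1R1 lies in a cluster of receptor genes on chromosome 2, and the list of the 7 other receptors of the family shows how its neighbours behaved. Of the 7, 4 were tested (IL1RL1, IL18R1, IL18RAP and SIGIRR), while IL1RL2, IL1RAPL1 and IL1RAPL2 had too few counts. With IL-4, 2 of the 4 rose in IRES cells, 1 in NIC1 and 2 in DNMAML cells, and none fell, while 2.93%, 3.05% and 3.28% of all genes were called. With the block 2, 2 and 3 rose, against 9.04%, 8.8% and 9.95% of all genes called. The median log2 change of the 4 was 1.08, 0.73 and 1.503, beside -0.005, -0.011 and -0.009 over all genes tested.

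IL18R1, the ligand-binding chain of the interleukin 18 receptor (chr2:102311529-102398775, plus strand), was at 26.1, 50.9 and 27.98 CPM in IRES cells without IL-4 and 81.5, 109 and 97.1 CPM with it, and rose in all 3 constructs (log2 1.45 ± 0.238, 1.13 ± 0.233 and 1.62 ± 0.2404, edgeR adjusted p of 0.00199, 0.0114 and 8.08e-04). IL1RL1, the receptor of IL-33 (chr2:102311502-102352037, plus strand), was at 0.581, 1.73 and 0.857 CPM without and 3.02, 4.81 and 5.397 CPM with IL-4 in IRES cells and rose by 2.04 ± 0.412 (adjusted p = 0.00887). In NIC1 and DNMAML cells its change was 1.31 ± 0.349 (adjusted p = 0.0559, blocked 2.11e-04) and 1.64 ± 0.451 (adjusted p = 0.0638, blocked 0.00452). The annotated IL18R1 begins inside IL1RL1 on the same strand, so reads in the shared stretch could not be assigned with certainty. IL18RAP, the accessory chain, at 1.67, 3.81 and 2.86 CPM without and 6.13, 7.29 and 8.34 CPM with IL-4 in DNMAML cells, rose there by 1.39 ± 0.304 (adjusted p = 0.016). Its change was called in neither fit in IRES (0.72 ± 0.294, adjusted p = 0.349, blocked 0.0823) or NIC1 cells (0.32 ± 0.280, adjusted p = 0.941, blocked 0.481). Together with IL1R1, at its 4.21-fold to 7.001-fold within IRES experiments, these receptors are 4 of the 5 tested receptor genes of the cluster, though not each was called in every construct. IL1R2, next to IL1R1, is the fifth. IL1R2 did not pass the test at its low counts.

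**Figure D5:**
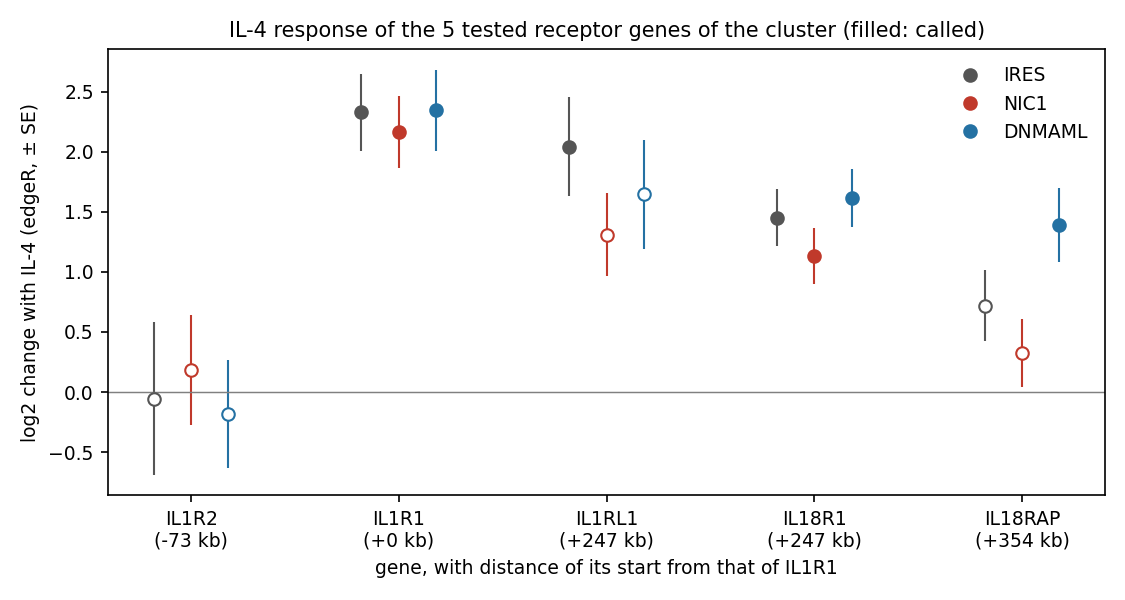
Log2 change with IL-4 and its SE (edgeR without the block) for the 5 tested receptor genes of the chromosome 2 cluster in IRES, NIC1 and DNMAML cells, in order of their start, given in kb from that of IL1R1; filled circles passed an adjusted p of 0.05. IL1R1 and IL18R1 are filled in all 3 constructs, IL1RL1 in IRES and IL18RAP in DNMAML cells, and IL1R2 lies around 0.

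The same receptors differed between the Notch constructs in the direction of IL1R1. Without IL-4, IL1RL1 was higher in NIC1 than in DNMAML cells by 2.53 ± 0.434 on the log2 scale (edgeR adjusted p = 0.00754), IL18R1 by 1.20 ± 0.2397 (adjusted p = 0.0202) and IL18RAP by 1.58 ± 0.305 (adjusted p = 0.0147), 3 of 4 tested and none lower, in a comparison that called 1.65% of all genes. IL1RL1 stood at 4.11, 4.698 and 4.16 CPM in NIC1 and 0.666, 1.32 and 0.226 CPM in DNMAML cells, without overlap. With IL-4, 1 of the 4 was called, IL1RL1 at 2.20 ± 0.366 (adjusted p = 0.00589), and 2 with the block, where IL18R1 was added (blocked 0.00328). The shares of all genes were 1.44% without and 12.6% with the block. Against IRES cells none was called without the block, and 3 without and 2 with IL-4 were called with it, all higher in NIC1, where 5.37% and 5.44% of all genes were called. SIGIRR, an inhibitory receptor of the family encoded elsewhere, was at 14.3 to 15.2 CPM in the group means and was called in no comparison.

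None of the 7 other ligands of the family (IL33, IL36A, IL36B, IL36G, IL36RN, IL37 and IL1F10) had enough counts to be tested, and the highest count of any in a library was 6, for IL36G. The 16 genes of signalling below the receptor, from MYD88 to IKBKB, were all tested. Without the block none was called by edgeR in any of the 12 comparisons, which called 0.0% to 3.28% of all genes. The median log2 change of the 16 with IL-4 was -0.020 in IRES, 0.012 in NIC1 and 0.010 in DNMAML cells, beside -0.005, -0.011 and -0.009 over all genes. With the block the kinase gene IRAK2 fell with IL-4 in each construct (log2 -0.92, -0.80 and -0.92, blocked adjusted p of 3.43e-05, 1.18e-04 and 2.43e-05), from 35.6 ± 19.6 to 18.5 ± 8.299 CPM (SD, n = 3) in IRES cells. TAB1, a subunit that activates the kinase TAK1, fell in IRES cells with the block (-0.26, blocked 0.0159). The inhibitory IRAK3 was lower in NIC1 than in DNMAML cells without IL-4 with the block (-0.62, blocked 0.00291), and so was IKBKB, the IKK beta kinase gene (-0.33, blocked 0.00671, and with IL-4 -0.27, blocked 0.0248). IRAK3 was also lower in NIC1 than in IRES cells without IL-4 (blocked 0.0316).

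Of 18 inflammasome components and regulators 15 were tested, and CASP5, NAIP and PYDC1 were not. In edgeR without the block 1 was called in 1 comparison, which called 3.28% of all genes. NEK7, a kinase that binds NLRP3, fell with IL-4 in DNMAML cells (-0.42 ± 0.0761, adjusted p = 0.00352), at 157 ± 9.23 CPM without and 117 ± 8.14 CPM with IL-4. With the block NEK7 fell in all 3 constructs (blocked 0.00135, 0.0039 and 1.21e-05), and PYCARD, the adaptor that joins NLRP3 to caspase 1, rose in all 3 (log2 0.37, 0.23 and 0.30, blocked 5.30e-04, 0.0343 and 0.00392). The block counts of this list with IL-4 were 1 higher and 3 lower in IRES, 2 and 4 in NIC1 and 2 and 3 in DNMAML cells, of 15 tested, while 9.04%, 8.8% and 9.95% of all genes were called in the same fits. P2RX7, the ATP receptor upstream of NLRP3, was among the lower ones in all 3 (blocked 0.00488, 0.0356 and 0.00132). TXNIP, which binds NLRP3, was also lower in all 3 (log2 -0.19, -0.25 and -0.19). CARD8 was lower in NIC1 cells (blocked 0.0497), and SERPINB1, an inhibitor of neutrophil proteases, higher in DNMAML cells (blocked 0.0168). Between NIC1 and DNMAML cells 1 was higher and 4 were lower without IL-4 with the block, and 1 and 3 with IL-4, where 13.8% and 12.6% of all genes were called. The sensor NLRP1 (log2 -0.83, blocked 0.0107), P2RX7 (-0.64, blocked 0.00295), TXNIP (-0.37, blocked 9.61e-05) and the membrane rupture gene NINJ1 (-0.28, blocked 0.00861) were the lower ones without IL-4. SERPINB9, a granzyme B inhibitor, was higher in NIC1 than in DNMAML cells with the block, by 1.96 without and 2.28 with IL-4 (blocked 3.55e-07 and 1.75e-08).

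Genes that interleukin 1 is known to induce in many cells included more that fell than rose with IL-4. Of 19 such genes 14 were tested; SOD2 could not be matched by its symbol, and IL6, CXCL2, CXCL5 and CSF3 had too few counts. TNFAIP3, an inhibitor of NF-kappaB, fell in IRES, NIC1 and DNMAML cells (log2 -0.77 ± 0.135, -0.69 ± 0.134 and -0.74 ± 0.135, edgeR adjusted p of 0.00286, 0.00681 and 0.00392), from 85.9 ± 18.6 to 50.5 ± 6.72 CPM in IRES cells. The chemokine gene CXCL1 fell in NIC1 cells (-1.77 ± 0.457, adjusted p = 0.0474), where its mean was only 0.996 CPM without and 0.288 CPM with IL-4. NFKBIZ fell in DNMAML cells (-0.83 ± 0.177, adjusted p = 0.0131). Thus 1, 2 and 2 of the 14 were lower and none higher, in comparisons that called 2.93%, 3.05% and 3.28% of all genes. The median log2 change was -0.62, -0.61 and -0.79 in the 3 constructs, beside -0.005, -0.011 and -0.009 over all genes. With the block 3 rose and 6 fell in IRES cells, 2 and 7 in NIC1 and 3 and 8 in DNMAML cells, of 14 tested, in fits that called 9.04%, 8.8% and 9.95% of all genes. The chemokine gene CCL20 (log2 -1.26, -1.34 and -1.46, blocked 3.51e-05, 6.59e-06 and 2.26e-06) fell in all 3, and BIRC3, an inhibitor of apoptosis, in IRES and DNMAML cells (blocked 0.0179 and 0.0262). ICAM1, an adhesion molecule, rose in all 3 (log2 0.66, 0.76 and 0.56, blocked 5.06e-05, 8.53e-06 and 2.93e-04). CSF2, the GM-CSF gene, was also called higher in all 3 with the block (blocked 0.0211, 0.00241 and 0.0375). Only NIC1 cells with IL-4 had a mean above 1 CPM, at 2.33 CPM. In IRES and DNMAML cells CSF2 was at 0.024 CPM without IL-4 and at 0.44 ± 0.40 and 0.37 ± 0.44 CPM with it (SD, n = 3). Its calls in IRES and DNMAML cells thus rest on very few reads and do not establish a rise there. Between NIC1 and DNMAML cells 4 were higher and none lower without IL-4 with the block, and 4 and 1 with it, against 13.8% and 12.6% of all genes called in either direction. TNF was higher in NIC1 than in DNMAML cells with the block, without IL-4 by 1.57 (blocked 0.0118) and with it by 1.99 (blocked 0.00882), and was not called without the block. With the block PTGS2, the cyclooxygenase 2 gene, was higher in NIC1 than in DNMAML cells with IL-4 (blocked 0.0139) and LIF without it (blocked 0.00623). The gene of the NF-kappaB inhibitor NFKBIA was higher in NIC1 than in IRES cells with IL-4 (blocked 0.0475). Without the block, NFKBIZ was higher in NIC1 than in DNMAML cells with IL-4 by 0.83 ± 0.177 (adjusted p = 0.0279).

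The patterns of the 10 genes across the 18 libraries were described by Pearson's r of log2 CPM after the mean of each experiment was removed, a description in which the points share constructs, stimulus and depth. IL1RN and IL1R1 were the pair most alike among the 10, with r = 0.946, and IL18 and IL1R1 the most opposed, with r = -0.814. Over all tested genes, those most like IL1RN were ELL2 (r = 0.994), AGPAT4 (r = 0.985) and PTPRE (r = 0.984). The genes most like IL1R1 were MAPKAPK3 (r = 0.991), ARHGAP25 (r = 0.987) and TOP1 (r = 0.982). The genes most like IL18 were TXNIP (r = 0.971), GXYLT2 (r = 0.969) and MAPK13 (r = 0.958). Those most like NLRP3 were GNGT2 (r = 0.919), SLC4A8 (r = 0.910) and EGR3 (r = 0.908), and those most like IL1B were VAT1L (r = 0.926), KPNA1 (r = 0.926) and MAP3K4 (r = 0.925). For IL1A they were PPP4R4 (r = 0.866), CYBB (r = 0.864) and YES1 (r = 0.862), and for IL1RAP TDRD9 (r = 0.902), JADE2 (r = 0.883) and EPHA10 (r = 0.874). IL1R2, IL18BP and CASP1, whose IL-4 changes were called in no fit, had highest values of r of 0.894 with ADGRG1, 0.904 with ECEL1 and 0.847 with ALG9.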

How the data were processed

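RNA of THP-1 cells was sequenced from TruSeq libraries, and the authors deposited raw counts of reads per Ensembl gene for each of the 18 samples. FastQC, Trimmomatic, HISAT2, HTSeq and DESeq2 and the build GRCh38.p12 are named in the submitters' processing notes; neither versions nor a strand setting are stated there. Reads in rows that name no gene (23.8% to 30.9% of a library) were left out of totals and tests. The 58051 genes were filtered with filterByExpr to 15037 and scaled by TMM. Counts were fitted with edgeR 4.0.16 (robust quasi-likelihood F test, 6 group means over all 18 libraries, Benjamini-Hochberg adjustment over all genes tested, threshold 0.05) in R 4.3.3 with limma 3.58.1, for 12 comparisons. CPM are counts divided by the TMM-scaled library total, on edgeR's usual scale; per kb values divide them by the exon length of GENCODE release 29, which also gave positions and symbols. Figures and tables were made with Python 3.11.15, pandas 2.3.3 and matplotlib 3.10.9. Promoter windows came from RefSeq on GRCh38.p14.

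Groups came from the sample titles. Libraries with the same experiment number deviated from their group means together: over 45 pairs r was 0.206 to 0.759, with a median of 0.466. The median of -0.39 for different numbers is not a separate comparison, because deviations from a group mean cancel out within the group. The numbers were taken to pair the samples, and a fit with the number as a block stands beside results it changes. Other alternatives were a block for each construct and number, RLE scaling, other low-count filters, DESeq2 1.42.0, only the groups compared, and leaving out libraries. The fits were tested on simulated data.

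The 10 genes, the 5 gene lists and the marker lists were chosen with earlier results of these data known. All 10 genes are named. List genes are named where called in either fit, at most 4 per list and comparison by smallest adjusted p, as are the 3 genes most like each of the 10, by r of log2 CPM with a prior count of 2. MRC1 and the other markers come from the marker lists. The antagonist ratio and the view of the chromosome 2 receptor cluster were chosen after values had been seen.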

Additional observations from a re-analysis of the deposited data

How the results depend on the processing

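Numbers here count how many of the 10 genes passed the test. With the replicate block, which treats libraries of the same experiment number as paired, the count was 4 in place of 2 for IL-4 in IRES cells, 2 in place of 0 for NIC1 against IRES without IL-4 and 4 in place of 0 with it, and 5 in place of 1 for NIC1 against DNMAML without IL-4. When blocks combined construct and number it was 5 for IL-4 in IRES and 5 in NIC1 cells. DESeq2 gave 1 for NIC1 against IRES with IL-4 and 2 for NIC1 against DNMAML without IL-4. With only the groups compared in the fit the count was 0 for NIC1 against DNMAML without and with IL-4, and without the 2 libraries with the most genes it was 0 with IL-4. Leaving out 1 library gave 0 to 2 for NIC1 against DNMAML in both conditions. The share of all genes called is given above only for the fits without and with the experiment block. Counts from the other settings therefore cannot be set against all genes here, and a higher count may come with more calls among all genes. Of 24 changes of single genes called with or without the block, 322 alternative values held 281 on the same side of the threshold, 17 no longer past it, 24 newly past it and 0 of the other sign. The cause of these changes was not tested. IL1R2, with 2 to 14 counts in a library, is limited by depth.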

Other observations

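Genes within 500 kb of each of the 10 were looked up after the changes of IL1R1 had been seen. The counts below are of tested neighbours called in at least 1 of the 3 IL-4 comparisons by edgeR, first without and then with the experiment block, and 4.26% and 13.2% of all 15037 genes were so called. Around IL1R1 it was 3 of 6 in both fits, the receptor genes IL1RL1, IL18R1 and IL18RAP described above, and around IL1R2 4 of 6 in both, which adds IL1R1 itself. Around IL1RN it was 0 and then 4 of 13. Around IL1A it was 1 and 5 of 13 and around IL1B 1 and 6 of 13, and the 1 called without the block was IL1RN in both cases. The neighbourhoods of IL1A, IL1B and IL1RN overlap, so these counts share genes. For IL18 it was 1 and 2 of 12, and for NLRP3 0 and 2 of 10. For IL18BP, with 10 tested neighbours, and for IL1RAP and CASP1, with 2 each, none was called in either of these fits.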
